A study of Mus musculus with 6 samples.

Results

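The Kruppel-like factors described here are 10 genes, Klf3, Klf4, Klf5, Klf6, Klf7, Klf9, Klf10, Klf11, Klf13 and Klf15, taken from a table of RNA-seq read counts for 24594 genes. They were found by their Entrez gene IDs, each of which matched its symbol in RefSeq's mouse gene table, and all 10 had enough reads to be tested. The samples were mouse epithelial organoids grown in Matrigel from adult crypts of the proximal small intestine. All of them carried TetON-hYAP/H2B-mCherry, a doxycycline-switched human YAP gene with a red fluorescent histone, and shared a medium with EGF, Noggin and R-spondin1. The 3 doxycycline libraries came from organoids given 1 ug/ml doxycycline for 48 h from passaging, and the 3 control libraries from organoids of the same genotype without it. YAP is the transcriptional coactivator held back by the Hippo pathway. No library had doxycycline without the transgene, so the drug and the transgene cannot be told apart. The sources used here give no driver for the doxycycline-dependent activator, no number of organoid lines and no age of the animals.

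Kruppel-like factors are transcription factors that end in a row of zinc fingers, with which they bind GC-rich and CACCC sequences in promoters. Members differ in the part before the fingers: some recruit coactivators, while others recruit the corepressors CtBP or Sin3A. In the intestine, Klf5 is known from dividing crypt cells and Klf4 from the differentiated cells of the villus and from goblet cells.

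The family's own promoters are shown first because the letters its proteins bind also occur there. RefSeq's promoter table (GRCm38.p6) held 8 of the 10 members. Each window was 240 bases long and ran from 250 to 11 bases before the start site. The windows shown are those of Klf4, Klf6 and Klf15, the members with the highest fold changes, and of Klf9, which did not pass the test. They are written 5′ to 3′ on the gene's strand, and capitals mark GC boxes (GGGCGG or CCGCCC) and CACCC boxes (CACCC or GGGTG). Klf4 is at chr4:55532486-55532725 (minus strand), Klf6 at chr13:5861239-5861478 (plus strand), Klf15 at chr6:90462326-90462565 (plus strand) and Klf9 at chr19:23140976-23141215 (plus strand). None of the 4 windows overlapped an annotated exon, and the Klf15 window lay within the span of the gene.
Klf4: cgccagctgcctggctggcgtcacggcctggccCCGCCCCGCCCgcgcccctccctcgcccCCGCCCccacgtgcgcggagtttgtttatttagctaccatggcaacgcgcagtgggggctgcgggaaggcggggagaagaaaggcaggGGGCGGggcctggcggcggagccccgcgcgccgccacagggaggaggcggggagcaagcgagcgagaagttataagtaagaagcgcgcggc
Klf6: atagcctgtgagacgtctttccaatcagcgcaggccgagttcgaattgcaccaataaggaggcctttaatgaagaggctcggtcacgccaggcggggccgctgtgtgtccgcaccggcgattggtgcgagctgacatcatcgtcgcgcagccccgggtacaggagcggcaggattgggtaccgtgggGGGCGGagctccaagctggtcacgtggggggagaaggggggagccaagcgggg
Klf15: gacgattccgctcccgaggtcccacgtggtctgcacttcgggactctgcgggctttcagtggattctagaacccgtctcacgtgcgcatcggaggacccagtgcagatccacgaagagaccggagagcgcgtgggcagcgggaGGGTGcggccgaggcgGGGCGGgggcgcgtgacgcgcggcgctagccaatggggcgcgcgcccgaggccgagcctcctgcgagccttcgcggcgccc
Klf9: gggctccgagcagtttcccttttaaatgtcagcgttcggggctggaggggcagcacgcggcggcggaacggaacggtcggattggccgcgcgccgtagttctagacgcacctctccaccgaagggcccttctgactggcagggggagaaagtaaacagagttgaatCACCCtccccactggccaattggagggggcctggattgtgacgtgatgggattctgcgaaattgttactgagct

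The Klf4 window held 4 GC boxes, the Klf6 window 1, the Klf15 window 1 with 1 CACCC box, and the Klf9 window 1 CACCC box alone. Over the 8 member windows, 7 held a GC box and 5 a CACCC box. The member windows were rich in G and C, at 59.2% or more, and among the 9346 windows of the table with at least that content the shares were 73.6% for GC boxes and 64.2% for CACCC boxes. Over all 32851 windows, the shares were 31.3% and 50.6%. GC and CACCC boxes overlapped by some letters at 1 place each in Klf3 and Klf13. The letters GGAATG or CATTCC, the core bound by the TEAD partners of YAP, were in none of the 8 member windows, against 12.2% of all windows and 7.93% of the GC-rich ones. The AP-1 letters TGANTCA were in 1 member window, that of Klf9, against 6.58% of all windows and 2.88% of the GC-rich ones. The CCAAT box (CCAAT or ATTGG) was in 5 member windows, against 33.0% and 28.3%, and the CRE letters TGACGTCA were in none, against 1.44% and 2.50%. The E-box CACGTG was in 4 member windows (Klf4, Klf6, Klf11 and Klf15), against 5.69% of all windows and 8.89% of the GC-rich ones. A match describes the letters only, and both strands were searched.

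The 6 libraries held 8533452 to 16803062 counts. Levels are given in CPM, the usual count share of a library, here with library sizes scaled by TMM, and tests are edgeR's quasi-likelihood F-test, with p adjusted by Benjamini-Hochberg across the 12909 genes that entered it and a threshold of 0.05. On that scale the median log2 fold change over all genes was -0.08, and with total counts alone it was -0.52, so directions are relative to the scaling. Without control library 3, 9286 genes were called in place of 5850, the highest count with any 1 library left out, and values without it are given where it moves a result. Nothing in the labels ties the libraries of a group to separate animals or cultures, so p-values measure only the spread between these libraries, which may be technical. The epithelial markers summed to 4614 to 5268 CPM in control and 17861 to 19046 CPM with doxycycline. Krt19 was the largest part of that sum, at means of 1605 and 8871 CPM. Of the 8 markers, 5 rose, 1 fell and 2 did not pass the test. The one that fell was Cdx1, from 292.3 ± 60.0 to 16.5 ± 0.909 CPM (log2 fold change -4.14, edgeR adjusted p = 5.36e-05). The number that rose was 3 with total counts or without doxycycline library 1 or 2, and 7 without control library 3. Over all genes, the shares higher in these settings were 13.5%, 16.1%, 14.9% and 34.9%, in that order, and 21.7% with TMM and all libraries. The 10 mesenchymal markers summed to 4.42 to 6.49 CPM in control and 1.21 to 1.69 CPM with doxycycline, and the 1 tested, Vim, fell. The 7 immune markers summed to 21.1 to 43.7 CPM and 28.7 to 29.8 CPM, with 2 tested and none called. Most of that sum was Csf1r, a macrophage receptor gene, at means of 26.8 CPM in control and 25.1 CPM with doxycycline. Without control library 3 it passed (log2 fold change 0.34, edgeR adjusted p = 0.0252). Itgam had means of 2.80 and 3.37 CPM and Lyz2 of 0.390 and 0.601 CPM, and Ptprc, Adgre1, Cd3e and Cd79a were lower still. The 6 endothelial markers summed to 2.54 CPM or less, and the 1 tested, Tek, rose from 0.427 to 1.40 CPM and lost its call in 5 settings. Col1a1, Dcn and Lum, which mark fibroblasts, were at 0 in all libraries.

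With doxycycline, 5 members rose (Klf3, Klf4, Klf6, Klf10 and Klf15), 1 fell (Klf7) and 4 did not pass the test (Klf5, Klf9, Klf11 and Klf13). Of all genes tested, 45.3% changed, 21.7% upward and 23.6% downward. The median log2 fold change of the 10 members was 0.78, against -0.08 for all genes. The libraries of the 2 groups did not overlap for 9 members, 8 higher and 1 lower, and the share of all genes without overlap was 61.3%, 30.0% higher and 31.3% lower. Klf9 was the member whose groups overlapped. RNA was measured in bulk, so more cells of a type and more RNA per cell cannot be told apart.

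**Figure D1:**
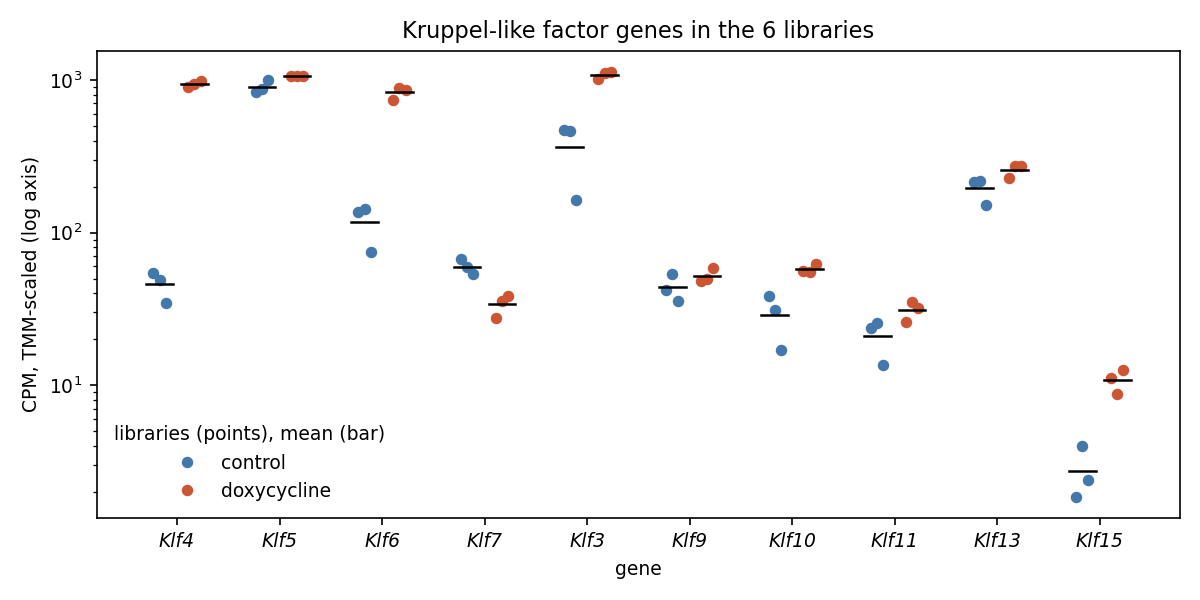
Level of each Kruppel-like factor in CPM (log axis) in the 3 control and 3 doxycycline libraries, 1 point per library, with the group mean. Klf4 goes from 34.8 to 54.7 CPM in control to 896 to 984 CPM with doxycycline, while Klf9 overlaps between the groups.

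Klf4, Klf5, Klf6 and Klf7 are the members known mainly as activators. Klf4 (Entrez 16600, GRCm38 chromosome 4, 55527137 to 55532475, minus strand), which restrains the cell cycle and marks differentiated gut epithelium, was at 54.7, 48.8 and 34.8 CPM in control and at 896, 939 and 984 CPM with doxycycline. Every doxycycline library was far above every control library. The mean went from 46.1 ± 10.2 to 939.8 ± 44.3 CPM (SD, n = 3 each), a 20.4-fold rise (log2 fold change 4.35, SE 0.229, edgeR adjusted p = 5.64e-05). Its log2 fold change was the 132nd highest of the 12909 genes tested. The call held under all 13 alternative settings, with log2 fold changes of 3.90 to 4.49.

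Klf6 (Entrez 23849, chromosome 13, 5861489 to 5870393, plus strand), an early-response factor, was at 137, 142 and 74.1 CPM in control and at 733, 881 and 864 CPM with doxycycline. The groups lay far apart, with control library 3 lowest. The mean rose from 117.7 ± 37.9 to 826.0 ± 81.3 CPM (SD, n = 3 each), 7.02-fold (log2 fold change 2.81, SE 0.285, edgeR adjusted p = 4.57e-04), the 384th highest of all genes. Its range over the 13 settings was 2.37 to 2.97.

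Klf5 (Entrez 12224, chromosome 14, 99298691 to 99313412, plus strand), the proliferative crypt factor, was the most abundant member in control, at 838, 871 and 998 CPM, and was at 1064, 1062 and 1055 CPM with doxycycline. The doxycycline libraries were nearly equal to each other and all above the controls, of which library 3 was closest to them. The log2 fold change was 0.23 (SE 0.150) and did not pass the test (edgeR adjusted p = 0.244). Without control library 3 it passed (0.33, adjusted p = 1.87e-04), and with total counts as the scaling its sign turned (-0.21, adjusted p = 0.278).

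Klf7 (Entrez 93691, chromosome 1, 64029448 to 64122345, minus strand), known from neurons and progenitor cells, was the member that fell. It was at 66.8, 59.8 and 53.2 CPM in control and at 27.7, 35.5 and 38.5 CPM with doxycycline, so that each control library was above each doxycycline library. Means were 59.96 ± 6.83 and 33.9 ± 5.58 CPM (SD, n = 3 each), a 1.77-fold fall (log2 fold change -0.82, SE 0.186, edgeR adjusted p = 0.0107). It held in all 13 settings, from -1.27 to -0.69.

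Klf3 (Entrez 16599, chromosome 5, 64803521 to 64832901, plus strand) is a repressor that works through CtBP. Its control libraries were at 467, 463 and 164 CPM and its doxycycline libraries at 1005, 1107 and 1125 CPM. All doxycycline libraries were higher, and control library 3 was well below the other control libraries. The mean rose from 364.4 ± 173.9 to 1079 ± 64.6 CPM (SD, n = 3 each), 2.96-fold (log2 fold change 1.57, SE 0.389, edgeR adjusted p = 0.0160). The call was lost without doxycycline library 2 (adjusted p = 0.0542) or 3 (0.0539), at a log2 fold change of 1.55 in both cases, and held at 1.23 without control library 3.

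Klf9, Klf10, Klf11 and Klf13 are the members that bind the corepressor Sin3A. Klf10 (Entrez 21847, chromosome 15, 38291464 to 38300711, minus strand), first known as an early gene of the TGF-beta response, was at 38.5, 31.3 and 16.99 CPM in control and at 56.2, 55.2 and 62.1 CPM with doxycycline. The groups did not overlap, and control library 3 was again lowest. The mean rose from 28.9 ± 10.9 to 57.8 ± 3.72 CPM (SD, n = 3 each), with a log2 fold change of 0.99 (SE 0.293, edgeR adjusted p = 0.0301). The call was lost with total counts (0.55, adjusted p = 0.148) and without control library 2 or any 1 of the doxycycline libraries (adjusted p 0.0580 to 0.0948).

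Klf11 (Entrez 194655, chromosome 12, 24651371 to 24662782, plus strand), the other TGF-beta early gene, was at 23.8, 25.5 and 13.7 CPM in control and at 25.9, 35.2 and 32.3 CPM with doxycycline. The highest control library was just below the lowest doxycycline library. The log2 fold change of 0.57 (SE 0.269) did not pass (edgeR adjusted p = 0.127), and did without control library 3 (0.36, adjusted p = 0.0236). Klf13 (Entrez 50794, chromosome 7, 63886351 to 63938915, minus strand), known from lymphocytes and heart, was at 215, 218 and 152 CPM in control and at 229, 271 and 274 CPM with doxycycline. The separation was narrow, and the log2 fold change of 0.41 (SE 0.196) did not pass (edgeR adjusted p = 0.131). It passed without control library 3 (0.27, adjusted p = 0.00721) and turned sign with total counts (-0.04). Klf9 (Entrez 16601, chromosome 19, 23141226 to 23168129, plus strand), which responds to glucocorticoid and thyroid hormone, was at 42.3, 53.4 and 35.6 CPM in control and at 47.9, 49.6 and 58.7 CPM with doxycycline. The groups overlapped through control library 2, with a log2 fold change of 0.25 (SE 0.197, edgeR adjusted p = 0.337), or -0.19 with total counts.

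Klf15 (Entrez 66277, chromosome 6, 90461043 to 90491803, plus strand), a metabolic regulator that answers glucocorticoids, had the lowest CPM of the members in both groups. Its control libraries held 32, 52 and 24 reads (1.87, 4.0 and 2.41 CPM) and its doxycycline libraries 110, 95 and 178 reads (11.1, 8.78 and 12.6 CPM). Every doxycycline library was above every control library. The mean rose from 2.76 ± 1.11 to 10.8 ± 1.91 CPM (SD, n = 3 each), with a log2 fold change of 1.97 (SE 0.340, edgeR adjusted p = 0.00374). The call held in all 13 settings, from 1.53 to 2.35.

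**Figure D2:**
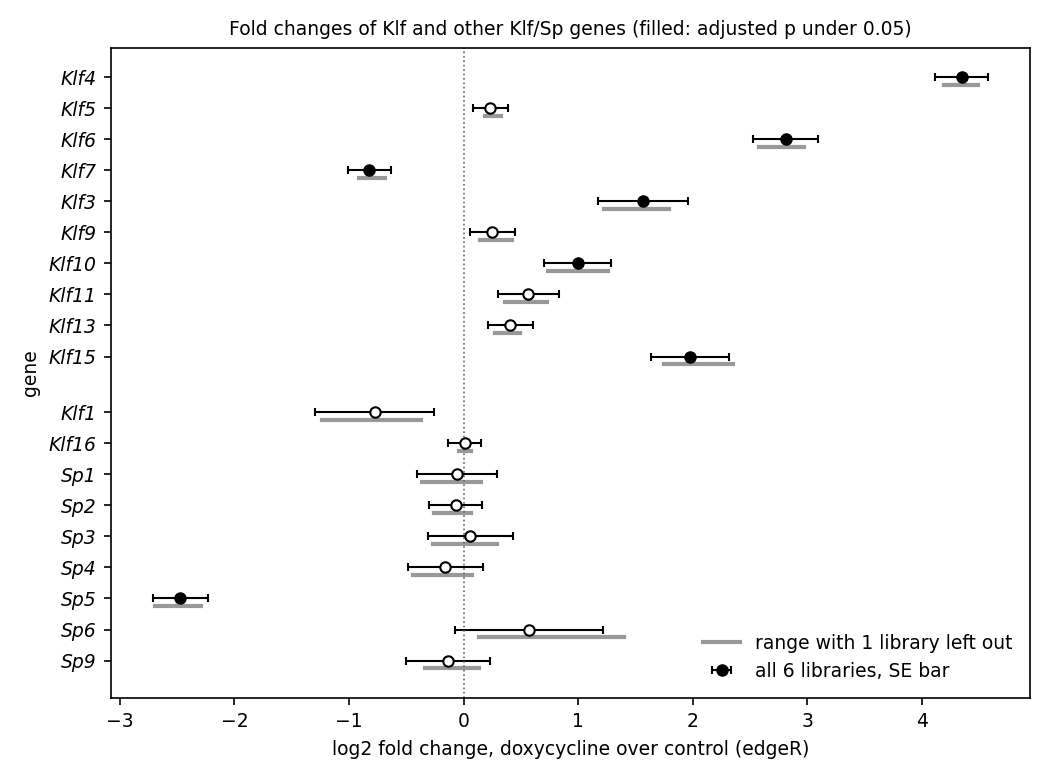
Log2 fold change of doxycycline over control for the 10 members (top) and the 9 other tested Klf and Sp genes (bottom), as points with SE bars from all 6 libraries, filled where the adjusted p is under 0.05; grey bars span the values with 1 library left out. Klf4 (4.35) and Klf6 (2.81) lie highest, and Klf7 (-0.82) and Sp5 (-2.47) are the filled points below 0.

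Control library 3 was below the mean of control libraries 1 and 2 for 9 of the 10 members, by 0.25 log2 units (Klf7) to 1.51 (Klf3), and above it for Klf5 by 0.22. With it left out, 8 members rose and 1 fell, where 5 rose and 1 fell with it. Over all genes, the share called was 69.9% without it (34.9% higher, 35.1% lower) and 45.3% with it. Its part in the results was not tested. Klf3, Klf7, Klf9 and Klf13 overlap other annotated genes, of which those in the table held 0 to 9 counts in a group. Some of these genes lie on the opposite strand, and the sources used here do not give strand use. Others lie on the member's own strand. Reads of such pairs therefore cannot be told apart.

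Per kilobase of the RefSeq-paired transcript, which puts members on one scale, Klf5 led in control at 269.2 ± 25.2 CPM per kb, and its range did not overlap that of Klf3, at 69.8 ± 33.3. Klf13 (30.4 ± 5.85), Klf6 (27.9 ± 8.96), Klf4 (15.2 ± 3.38), Klf9 (9.76 ± 2.01), Klf10 (9.50 ± 3.60) and Klf7 (7.83 ± 0.891) followed, each overlapping its neighbour in that order, as did Klf3 and Klf13. Klf11 (5.13 ± 1.56) and Klf15 (1.16 ± 0.466) came last. Klf11 overlapped neither Klf7 nor Klf15, but its range (3.35 to 6.23) overlapped that of Klf10 (5.58 to 12.65). With doxycycline the order was Klf5 (316.3 ± 1.38), Klf4 (310.3 ± 14.6), Klf3 (206.7 ± 12.4), Klf6 (195.5 ± 19.2), Klf13 (40.3 ± 3.89), Klf10 (19.0 ± 1.22), Klf9 (11.6 ± 1.29), Klf11 (7.62 ± 1.17), Klf15 (4.56 ± 0.805) and Klf7 (4.42 ± 0.728). Neighbours overlapped for Klf5 with Klf4, Klf3 with Klf6, and Klf15 with Klf7. Per kilobase of all exons merged, Klf5 was at 203.9 ± 0.890 and Klf4 at 308 ± 14.5 with doxycycline, with Klf6 at 188 ± 18.5 and Klf3 at 95.97 ± 5.74, so the order of these members rests on the length used.

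The members' summed level was 445.8 ± 34.4 CPM per kb in control and 1116 ± 50.7 with doxycycline (SD, n = 3 each). Klf5 made up 60.9 ± 10.7% of it in control and 28.4 ± 1.42% with doxycycline, and Klf4 3.39 ± 0.547% and 27.8 ± 0.442%. Klf3 was at 15.3 ± 6.60% and 18.5 ± 0.277%, and Klf6 at 6.17 ± 1.61% and 17.5 ± 1.01%. The sum and the shares used the RefSeq-paired transcript length. Like the order of the members, they rest on the length used. For every 100 Klf5 reads, the control libraries held 6.53, 5.60 and 3.49 Klf4 reads, and the doxycycline libraries held 84.2, 88.5 and 93.3. The log2 ratio differed by 4.14, and the exact two-sided permutation test gave p = 0.1, the smallest that 3 libraries against 3 allow.

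**Figure D3:**
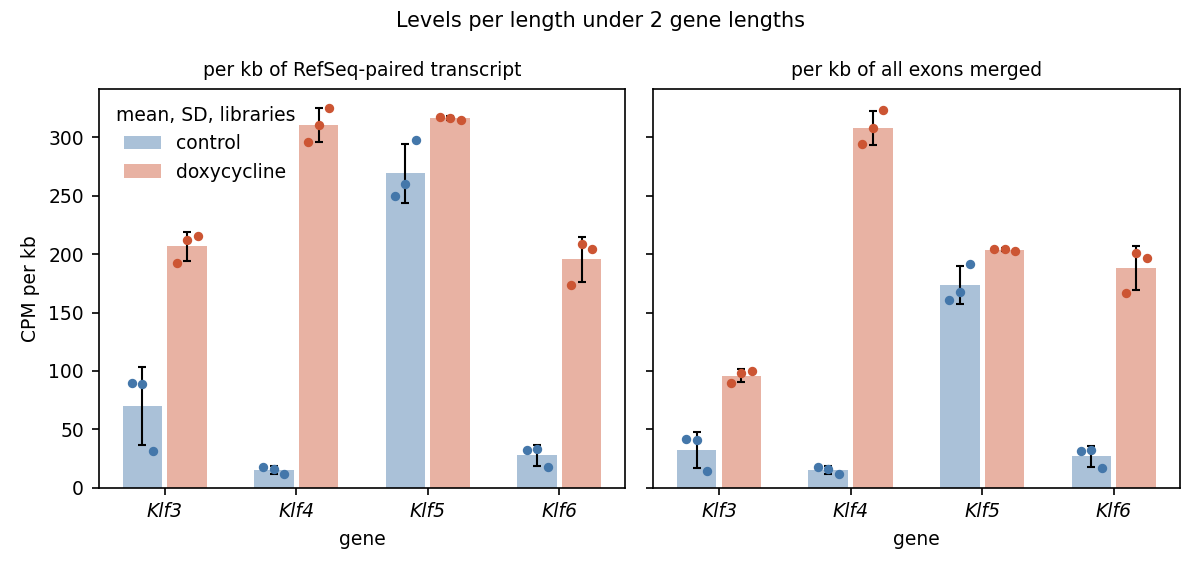
Levels of Klf3, Klf4, Klf5 and Klf6 in CPM per kb, with bars for the mean, error bars for the SD and points for the 3 libraries of each group, per kilobase of the RefSeq-paired transcript (left) and of all exons merged (right). With doxycycline Klf5 and Klf4 overlap on the left (316.3 and 310.3 CPM per kb), and Klf4 is above Klf5 on the right (308 and 203.9).

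For each member, the genes with the most similar profile over the 6 libraries were found by the root mean square difference of centred log2 CPM, among 10100 genes. Klf4 was nearest Mxd1 (0.154), a Max-binding repressor that rose from 93.2 ± 22.8 to 1553 ± 87.7 CPM, and Mfhas1 (0.172). Klf6 was nearest Cdhr2 (0.0347), a brush-border cadherin that rose from 51.1 ± 17.1 to 367.8 ± 37.8 CPM, and Creb3l2 (0.0680). Klf3 was nearest Tgfa (0.0513), an EGF receptor ligand, and Arhgap26 (0.0611). Klf7 was nearest Tle3 (0.0684), a Groucho-family corepressor, and Nlgn2 (0.0698). For the others they were Cd63 and Nudt12 (Klf10), Mamld1 (Klf15), Niban2 and Nr1i2 (Klf5), Ndufv1 and Akap10 (Klf9), Ndst1 and Sec22c (Klf11), and Epb41 and Rubcn (Klf13).

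Of the 16 other Klf and Sp genes in the table, 9 had enough reads to be tested. None rose, 1 fell, and the median was -0.07 (log2 fold change). The one that fell was Sp5, a target of Wnt signalling, from 47.8, 41.1 and 50.6 CPM to 8.08, 6.19 and 10.7 CPM (log2 fold change -2.47, SE 0.242, edgeR adjusted p = 3.99e-04). Klf16 was at 74.8 ± 3.89 and 75.4 ± 5.80 CPM (SD, n = 3 each; 0.01, adjusted p = 0.957). Sp1, the ubiquitous GC-box activator, was at 224.1 ± 98.3 and 215.6 ± 21.8 CPM, and Sp3 at 115.2 ± 53.8 and 120.1 ± 2.55 CPM. Both were low in control library 3, and without it they fell (-0.37, adjusted p = 5.58e-04, and -0.27, adjusted p = 0.00416). Without that library 5 of the 9 fell in all, beside 35.1% of all genes. Sp2 had a log2 fold change of -0.07, Sp4 -0.16, Sp6 0.57, Sp9 -0.14 and Klf1 -0.78, none past the test. Klf2, Klf8, Klf12, Klf14 and Klf17 had 44 counts or fewer in either group, and Sp7 and Sp8 had 0.

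The 13 genes of the cofactor list include ubiquitin and SUMO ligase genes (Fbxw7, Wwp1 and Pias1). None of the 13 rose, 3 fell and the median stood at -0.32 on the log2 scale. The counts of this list and the other lists stand beside shares over all genes tested of 21.7% higher and 23.6% lower. Sin3a, the scaffold bound by Klf9, Klf10, Klf11 and Klf13, fell from 70.6 ± 13 to 29.6 ± 3.12 CPM (log2 fold change -1.25, SE 0.189, edgeR adjusted p = 0.00206). Hdac2, a histone deacetylase of that complex, fell from 29.9 ± 6.81 to 14.2 ± 3.52 CPM (-1.07, adjusted p = 0.0155), and not past the test without doxycycline library 2 (0.0564) or 3 (0.0523). Ctbp1, the corepressor of Klf3, fell from 271.3 ± 132.3 to 130.5 ± 11.7 CPM (-1.05, adjusted p = 0.0369). Its call was lost without any 1 of the doxycycline libraries (0.0946 to 0.128) and with the replicate number as a block. Its log2 fold change was -0.57 without control library 3. With total counts 7 genes of the list fell, beside 39.7% of all genes. Without doxycycline library 2 or 3 only 1 did, beside 14.3% in both cases. Without control library 3, 2 rose, beside 34.9%.

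Of 21 tested genes reported elsewhere as targets of the family, 9 rose and 5 fell, and their median was -0.03. Without doxycycline library 2 or 3, 3 fell, beside 14.3% of all genes in both cases. Cdkn1a, the p21 inhibitor of cell division on which Klf4 and Klf6 act, rose from 230.6 ± 36.8 to 1322 ± 88.5 CPM (log2 fold change 2.52, edgeR adjusted p = 1.34e-04). Alpi, the alkaline phosphatase of enterocyte microvilli, went up from 1020 ± 279 to 6049 ± 189 CPM (2.57, adjusted p = 2.96e-04). Lgals3, galectin-3, rose from 29.1 ± 10.9 to 647.6 ± 16.4 CPM (4.48, adjusted p = 1.32e-04). Smad7, the inhibitor of TGF-beta signalling, rose from 14.8 ± 5.85 to 186.6 ± 15.2 CPM (3.65, adjusted p = 3.24e-04).

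The choice to name all 5 falling targets was made once their values had been seen. The cell cycle genes among them were Ccnb1 (55.5 ± 16.3 to 13.6 ± 2.50 CPM, log2 fold change -2.03, edgeR adjusted p = 0.00113), Ccne1 (15.5 ± 10.1 to 3.14 ± 0.709 CPM, -2.29, 0.00880) and Cdk1 (26.1 ± 14.6 to 6.64 ± 1.90 CPM, -1.97, 0.0104). The cell cycle genes of the list did not all fall: another cyclin gene, Ccnd1, rose from 298.9 ± 50.8 to 675.3 ± 79.2 CPM (1.18, adjusted p = 0.00290). Prodh, a proline-degrading enzyme, fell from 14.2 ± 5.92 to 4.83 ± 1.53 CPM (-1.56, adjusted p = 0.0140) and did not pass without doxycycline library 2 or 3 (0.0631 in both cases). Pdgfa, a growth factor, fell from 173.1 ± 107.0 to 71.7 ± 5.69 CPM (-1.27, adjusted p = 0.0387). It did not pass without any 1 of the doxycycline libraries (0.104 to 0.129) and was at -0.62 without control library 3.

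The TGF-beta early genes, the setting in which Klf10 and Klf11 were named, gave 6 of 10 higher and 1 lower, with a median of 0.92. With total counts, and without doxycycline library 2 or 3, 3 rose, beside 13.5%, 14.9% and 14.8% of all genes. Beside Smad7, Pmepa1 rose from 37.1 ± 11 to 83.2 ± 0.736 CPM (log2 fold change 1.17, edgeR adjusted p = 0.00581). Bambi, a decoy receptor, fell from 3.06 ± 0.804 to 0.305 ± 0.143 CPM (-3.33, adjusted p = 0.00172).

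Among glucocorticoid-responsive genes, the setting of Klf9 and Klf15, 3 of 11 tested rose and 1 fell, with a median of 0.23. Those that rose were Dusp1 (10.2 ± 2.62 to 121.6 ± 20.1 CPM, edgeR adjusted p = 1.46e-04), Sgk1 (3.89 ± 0.560 to 30.1 ± 3.07 CPM, 1.18e-04) and Errfi1 (86.97 ± 22.4 to 398.3 ± 24.7 CPM, 5.33e-04), which are also induced by other signals. Cebpd fell from 19.5 ± 4.95 to 10.8 ± 2.96 CPM (-0.85, adjusted p = 0.0443). It was not past the test without control library 2 or doxycycline library 2 or 3 (0.0782 to 0.157), with RLE factors (0.0505) or with the replicate number as a block. Fkbp5 and Tsc22d3, receptor targets in many tissues, had log2 fold changes of -0.43 and 0.23 and did not pass. Without control library 3 8 rose and 2 fell, beside 34.9% and 35.1% of all genes.

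Of 17 tested clock genes, 5 rose and 1 fell, with a median of 0.41. Npas2, a partner of Bmal1, rose from 11.5 ± 2.61 to 34.6 ± 1.51 CPM (log2 fold change 1.59, edgeR adjusted p = 0.00111), Nr1d1 from 37.4 ± 0.767 to 67.5 ± 5.56 CPM (0.85, 0.00335) and Cry2 from 16.6 ± 0.940 to 30.9 ± 3.31 CPM (0.90, 0.00467). Cry2 was not past the test with total counts (0.46, adjusted p = 0.0511). Rora fell, with 50 counts in control and 13 with doxycycline (-1.76, adjusted p = 0.0397), and lost its call in 6 settings. Without control library 3 9 rose and 2 fell, beside 34.9% and 35.1% of all genes. With total counts 3 rose and 3 fell, beside 13.5% and 39.7%.

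Markers of cell type and cycle moved beside the Klf4 and Klf6 values, and their part in them was not tested. Enterocyte markers rose for 9 of 11 genes, with a summed level of 2703 to 4493 CPM in control and 20134 to 21339 CPM with doxycycline. Fabp2 and Sis did not pass the test. The number that rose was 7 with total counts (beside 13.5% of all genes) or without any 1 of the doxycycline libraries (14.8% to 16.1%). It was 11 without control library 3 (34.9%). Of the 9 goblet cell markers, none rose and 8 fell, Fcgbp being the one that did not pass. Of the proliferation markers 8 of 10 fell, with a median of -2.01. The lists share genes: Alpi is a target and an enterocyte marker, Smad7 a target and a TGF-beta early gene, Cdh1 a target and an epithelial marker, Vil1 an enterocyte and an epithelial marker, Per1 a clock and a glucocorticoid-responsive gene, and Ccnb1 and Cdk1 targets and proliferation markers.

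**Figure D4:**
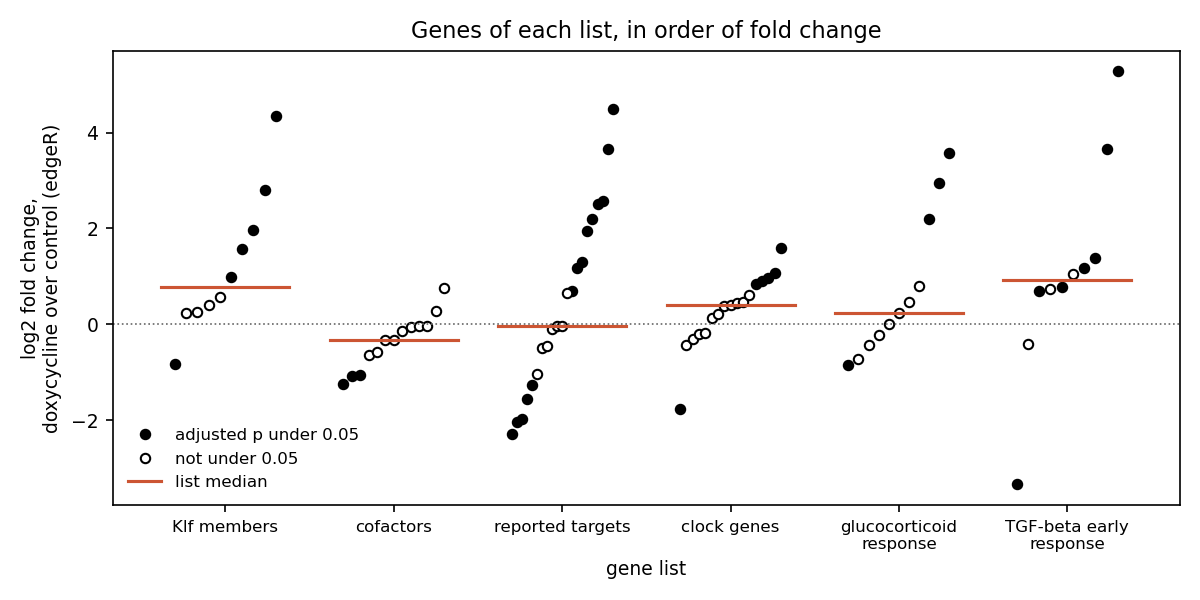
Log2 fold change of each tested gene in 6 lists, 1 point per gene in order of size, filled where the adjusted p is under 0.05, with a line at the list's median. The members' median is 0.78, that of the cofactor list -0.32 and that of the TGF-beta early genes 0.92.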

How the data were processed

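Bulk RNA-seq libraries of organoids from 1 genotype were compared, 3 without and 3 with doxycycline. The authors deposited whole-number counts per Entrez gene ID. Per the labels' protocols, a spin-column kit gave the RNA and Illumina's TruSeq RNA kit the libraries, which were read on a NextSeq. The submitters' processing notes name mm10. The sources used here give no aligner, counter, annotation or strand setting.

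The depth ran from 8533452 to 16803062 counts per library. Of 24594 IDs, 24570 matched RefSeq's gene table (GRCm38.p6) and the other 24 were kept without symbols. After edgeR's filterByExpr on the groups, 12909 genes were tested with edgeR 4.0.16 in R 4.3.3 (TMM factors, robust quasi-likelihood F-test, Benjamini-Hochberg adjustment, threshold 0.05). Levels per kilobase used GENCODE lengths of the RefSeq-paired transcripts. The fit was also run on simulated counts, with the same dispersion for every gene and no outlying library. That run cannot show how the fit behaves with a library like control library 3. Alternatives were DESeq2 1.42.0, voom of limma 3.58.1, RLE factors, total counts, no filter on low counts, requiring 10 counts in at least 3 samples, the replicate number as a block, and each library left out.

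Named were all 10 members, the other measured Klf and Sp genes, up to 4 genes with the smallest adjusted p from each of the other lists, genes of a direction that held only 1 or 2, and the 2 genes nearest to each member with a mean of at least 5 CPM. The log2 values used for likeness had a pseudocount of 1 CPM. Some genes outside the rule (Fkbp5, Tsc22d3, the immune markers beside Csf1r and Itgam, Ccnd1 and the 5 targets that fell) were chosen after their values were seen. Col1a1, Dcn, Lum, Fcgbp, Fabp2 and Sis were also outside the rule. A few genes named by the rule are not reported here, but the fit and the counts include them. The members and lists were chosen with earlier results of these data known.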

Additional observations from a re-analysis of the deposited data

How the results depend on the processing

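Of the 6 called members, 4 (Klf4, Klf6, Klf7 and Klf15) kept their call and direction under all 13 alternatives. The number of members called was 6 in the TMM fit and 4 to 9 when 1 library was left out (members higher 3 to 8, lower 1). Over all genes, leaving out 1 library gave 3836 to 9286 calls, against 5850, with 1945 to 4632 higher and 1888 to 4654 lower. The highest counts came without control library 3 and the lowest without doxycycline library 2 or 3. With total counts as the scaling, 1747 genes were higher and 5128 lower, 25.4% of calls higher against 47.9% with TMM, and the overall median was -0.52 against -0.08 (log2 fold change). The signs of Klf5 (-0.21), Klf9 (-0.19) and Klf13 (-0.038) turned there, from 0.23, 0.25 and 0.41 with TMM, moving down as the overall median did. Why the scalings differ was not tested. Deviations from the group means of same-numbered libraries had r = -0.37, 0.17 and -0.25. Control libraries 1 and 2 gave similar r with each doxycycline library, and control library 3 the opposite sign. These values therefore cannot decide whether the numbers pair the libraries. With the replicate block, 6 members were called (5 higher, 1 lower) and no member call changed. Of the other named genes, Ctbp1 (adjusted p = 0.0651), Cebpd (0.0950), Rora (0.0902) and Tek (0.0550) were not past the threshold there, and over all genes 2261 were higher and 2248 lower. The Klf4 to Klf5 log2 ratio differed by 3.87 to 4.32 with a library left out and by 4.14 within same-numbered libraries as a block (exact permutation p = 0.25, the smallest 3 pairs allow). Of 130 member values under alternatives, 117 kept direction and side of the threshold. Klf15, Rora and Bambi rest on few reads.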
